A study of Mus musculus with 7 samples.

Results

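The 8 genes described here encode enzymes that lengthen or desaturate fatty acids, namely the elongases Elovl1, Elovl2 and Elovl5, the front-end desaturases and their relatives Fads1, Fads2, Fads3 and Fads6, and the stearoyl-CoA desaturase Scd2. They were chosen by gene symbol and are 8 of the 51426 genes counted. All 8 passed the filter on low counts that left 14754 genes for testing. RNA was sequenced from livers of 7 male mice, 3 wild type (WT) and 4 TET1 whole-body knockout (TET1 KO), after 16 weeks of a high-fat diet (HFD). The labels give the strain as C57BL/6J for both groups, and per the study's methods the mice were 8 weeks old when the diet began. Each library was 1 liver.

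The 2 groups shared sex, diet, diet length and tissue and differed in genotype. WT mice carried intact Tet1. The other group, total knockout in the labels, is written TET1-/- by the study for the sequenced livers, which is its name for the germline deletion (B6;129S4-Tet1tm1.1Jae/J, with TET1 wt/wt littermates) and not for its cross of floxed Tet1 with a β-actin Cre. The methods state a C57BL/6J background or backcross for the floxed and Cre lines, and the line name of the germline deletion holds 129S4 as well as B6. TET1 is missing from every tissue, so effects that start in liver and in other tissues cannot be told apart. TET1 is a dioxygenase that oxidizes 5-methylcytosine in DNA. No group on normal chow was analysed here, so the values say nothing about the response to the diet itself.

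Mammals cannot make linoleic or α-linolenic acid, and the liver turns these dietary fats into arachidonic acid and docosahexaenoic acid by alternating desaturation and elongation in the endoplasmic reticulum. Fads2, the delta-6 desaturase, takes the first step, Elovl5 adds carbons, Fads1, the delta-5 desaturase, adds a further double bond, and Elovl2 acts on the longer products, which are trimmed in peroxisomes at the end of the omega-3 branch. Elovl1 extends saturated and monounsaturated very-long-chain acids used for sphingolipids, Fads3 acts on sphingoid bases, Scd2 is the stearoyl-CoA desaturase best known from brain and early life beside the liver's main isoform Scd1, and the substrate of Fads6 is not established.

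TET1 acts on cytosines of CG dinucleotides, so the promoter letters of Elovl5 and Fads2, the pair of members with the lowest p-values, are shown. Each window runs from 250 bases before to 50 bases after the transcript start in RefSeq (GRCm38.p6) and is written 5′ to 3′ on the gene's own strand. Capitals mark matches, on either strand, to the CCAAT box (CCAAT), the GC box (GGGCGG), the E-box (CACGTG) and the cyclic AMP response element (TGACGTCA). The Elovl5 window is chr9:77917115-77917414 on the plus strand, and the Fads2 window is chr19:10101454-10101753 on the minus strand.
Elovl5: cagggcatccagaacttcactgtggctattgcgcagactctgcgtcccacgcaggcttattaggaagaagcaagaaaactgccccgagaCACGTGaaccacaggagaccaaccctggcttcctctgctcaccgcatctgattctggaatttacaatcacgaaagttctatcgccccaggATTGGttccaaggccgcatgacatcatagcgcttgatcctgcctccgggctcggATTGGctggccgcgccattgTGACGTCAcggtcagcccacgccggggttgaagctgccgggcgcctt
Fads2: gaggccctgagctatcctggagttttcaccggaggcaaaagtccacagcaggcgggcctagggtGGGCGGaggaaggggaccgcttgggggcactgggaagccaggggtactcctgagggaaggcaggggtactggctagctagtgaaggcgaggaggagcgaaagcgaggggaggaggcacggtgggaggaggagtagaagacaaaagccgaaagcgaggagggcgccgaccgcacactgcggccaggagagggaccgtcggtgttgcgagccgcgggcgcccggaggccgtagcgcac

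The Elovl5 window held 20 CG dinucleotides, more than 73.5% of the 32851 windows in the RefSeq table, and the Fads2 window held 23, more than 78.5% of them. The median window held 7. Elovl5 had an E-box, whose letters stood in 7.15% of all windows, a cyclic AMP response element, in 1.79%, and 2 CCAAT boxes read on the opposite strand, in 37.4%. Fads2 had 1 GC box, a motif in 35.7% of windows. Of the other members, 4 had windows in the table, and their CG counts ran from 6 at the downstream window of Elovl1 to 56 at one of the Elovl2 windows. In none of the 8 member windows did a sterol response element (TCACCCCAC) or a direct repeat of nuclear receptor half-sites of the DR1 or DR4 type match, letters found in 0.551%, 0.0396% and 0.0152% of all windows. A match is a description of letters, and DNA methylation at these windows was not analysed here.

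The libraries held 15005277 to 22746138 counts assigned to genes, and levels are given as counts per 1000000 counts of the library (CPM) after TMM scaling. On the first principal component of log2 CPM, which took 48.7% of the variance, the WT livers lay between -56.9 (WT 2) and -19.4 and the TET1 KO livers between 1.60 (TET1 KO 4) and 57.1 (TET1 KO 1), with TET1 KO 2 at 20.6 and TET1 KO 3 at 25.8. TET1 KO 1 also had the highest mitochondrial share of counts, 14.4%, against 7.25% to 10.9% in the other 6. Tet1 itself had between 1 and 4 counts in each of the 7 livers, so its level could not check the labels, and Tet2 had a log2 fold change (log2 FC) of -0.01 (edgeR adjusted p = 0.984). The 8 hepatocyte markers, Alb among them, summed to 71790 to 90360 CPM in WT and 87780 to 94550 CPM in TET1 KO livers, most of it from Alb. EdgeR passed 0 of the 8, where 2.02% of all tested genes passed. At an unadjusted p under 0.05 1 was higher, as were 13.6% of all tested genes. DESeq2 passed Apoa1 (log2 FC 1.10) and Serpina1a (0.46), both higher with groups apart. Over all genes 4.16% were higher by DESeq2 and 11.7% had groups apart in this direction.

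Of the 8 members, 1 was past the threshold (adjusted p under 0.05, quasi-likelihood test of edgeR), which was Elovl5, lower in TET1 KO livers. Over all tested genes 2.02% passed, 0.874% higher and 1.15% lower. At an unadjusted p under 0.05, 26.3% of all tested genes passed (13.6% higher and 12.7% lower), and 2 members did, Elovl5 and Fads2. By DESeq2 Elovl5 was again the 1 member that passed, beside 8.74% of all genes, 4.16% higher and 4.58% lower. The remaining 7 did not pass, with Fads2 the nearest to the threshold. The median log2 FC of the members was -0.08, against 0.01 over all tested genes, with 4 members above 0 and 4 under. The WT and TET1 KO values did not overlap for 2 members, Elovl5 (lower) and Fads3 (higher), beside 22.5% of all tested genes. Without WT 2, TET1 KO 2 or TET1 KO 3, 0 members passed in edgeR (1, Elovl5, at an unadjusted p under 0.05 in each case). Without TET1 KO 4 both Elovl5 and Fads2 passed, whereas without WT 1, WT 3 or TET1 KO 1 the count was again 1. The count over all genes moved as well, from 298 to 38 without WT 2, 104 without TET1 KO 2 and 79 without TET1 KO 3. It was 891 without TET1 KO 4, and 283, 224 and 187 without WT 1, WT 3 and TET1 KO 1.

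**Figure D1:**
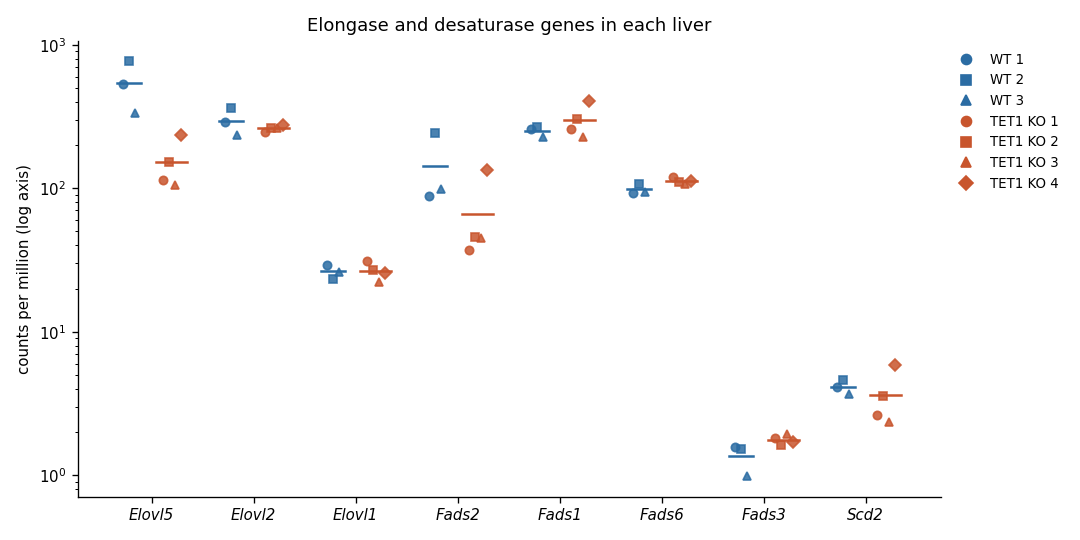
CPM (log axis) of the 8 members in each of the 3 WT (blue) and 4 TET1 KO (orange) livers, with marker shapes for the single livers and bars at the group means. Elovl5 lay between 334 and 765 CPM in WT and between 105 and 235 CPM in TET1 KO livers, whereas the Fads2 value of TET1 KO 4 lay among the WT values.

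Elovl5 (ENSMUSG00000032349, chr9:77917365-77984519, GRCm38.p6) encodes the elongase of polyunsaturated fatty acids of intermediate chain length. It was at 530, 765 and 334 CPM in WT 1 to 3 and at 115, 153, 105 and 235 CPM in TET1 KO 1 to 4, from 1832 to 18466 counts. The highest TET1 KO liver lay under the lowest WT liver, and WT 2 and TET1 KO 4 were the highest of their groups. The WT mean was 543 ± 216 CPM (SD, n = 3), and the TET1 KO mean of 152 ± 59.1 CPM (SD, n = 4) was 28.0% of it. The log2 FC was -1.84 (standard error, SE, 0.31; edgeR adjusted p = 0.0196), at rank 87 of the genes by p, and DESeq2 gave -1.87 (adjusted p = 3.63e-07). The exact permutation test over the 35 splits of the livers, two-sided, gave p = 0.0286, the smallest it can give.

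Leaving out 1 liver at a time, Elovl5 had log2 FCs from -2.13 to -1.51 and an edgeR adjusted p under 0.05 in 4 of 7 fits. The threshold was missed without WT 2 (adjusted p = 0.107), TET1 KO 2 (adjusted p = 0.0556) and TET1 KO 3 (adjusted p = 0.0620), each with fewer livers in the fit. A bulk library cannot tell less Elovl5 RNA per hepatocyte from fewer of the cells that make it.

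**Figure D2:**
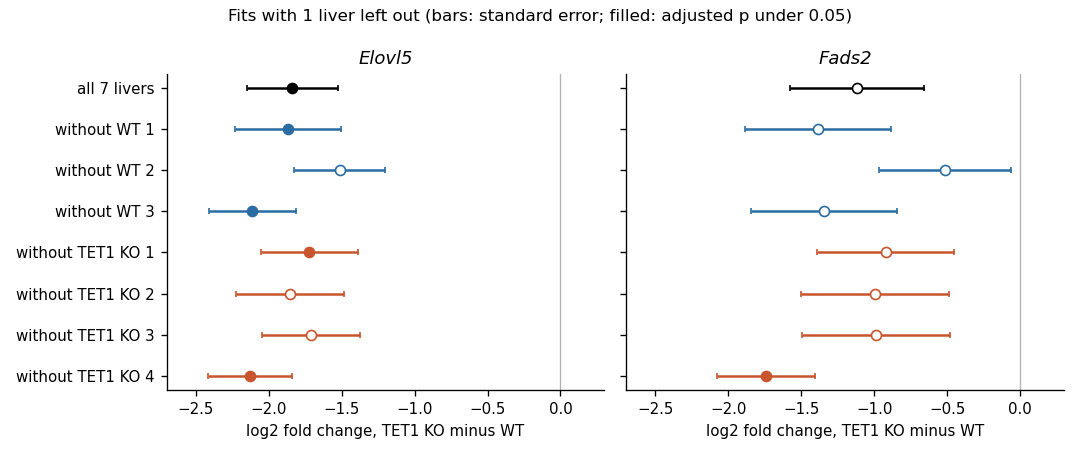
Log2 fold changes of Elovl5 and Fads2 (horizontal axis, TET1 KO minus WT, bars for standard errors) with all 7 livers (black) and with 1 WT (blue) or 1 TET1 KO (orange) liver left out, filled where the edgeR adjusted p was under 0.05. Elovl5 stayed between -2.13 and -1.51, and Fads2 moved between -1.74 without TET1 KO 4 and -0.51 without WT 2.

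Elovl2 and Elovl1, the other elongases, did not pass the test. Elovl2 (ENSMUSG00000021364, chr13:41182382-41220403), which elongates the longer polyunsaturated acids on the way to docosahexaenoic acid, was at 288, 362 and 234 CPM in WT and at 246, 262, 261 and 277 CPM in TET1 KO livers. The 4 TET1 KO values lay inside the WT range. Its log2 FC was -0.17 (SE 0.16, edgeR adjusted p = 0.506), with a 95% interval from -0.48 to 0.14. The 95% intervals given here are normal approximations from the SE and are narrower than the quasi-likelihood test implies.

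Elovl1 (ENSMUSG00000006390, chr4:118426874-118432953) was at 29.4, 23.3 and 26.2 CPM in WT and at 31.2, 27.0, 22.4 and 25.9 CPM in TET1 KO livers. The groups overlapped almost in full, and the log2 FC of 0.02 (SE 0.15, edgeR adjusted p = 0.955) had a 95% interval from -0.27 to 0.31 and took either sign with the scaling.

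Fads2 (ENSMUSG00000024665, chr19:10062765-10101503) was at 88.0, 242 and 99.3 CPM in WT and at 36.9, 45.9, 45.3 and 135 CPM in TET1 KO livers. TET1 KO 1 to 3 lay under every WT liver, and TET1 KO 4 lay above 2 of the 3 WT livers, while WT 2 was far above the other WT livers. The log2 FC was -1.12 (SE 0.46, edgeR adjusted p = 0.158; DESeq2 adjusted p = 0.256), and the exact permutation test gave p = 0.114. Without TET1 KO 4 the value was -1.74 (SE 0.33, edgeR adjusted p = 0.0250), and without WT 2 it was -0.51 (SE 0.45, edgeR adjusted p = 0.614).

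Fads1 (ENSMUSG00000010663, chr19:10182877-10196874), which follows Fads2 and Elovl5 in the pathway, was at 257, 269 and 228 CPM in WT and at 260, 305, 227 and 407 CPM in TET1 KO livers. Its groups overlapped, with TET1 KO 4 again the highest of its group. The log2 FC was 0.25 (SE 0.19, edgeR adjusted p = 0.415), with a 95% interval from -0.13 to 0.63.

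Fads6 (ENSMUSG00000044788, chr11:115278626-115297731) had the narrowest spread of the 8, at 92.8, 108 and 94.1 CPM in WT and 119, 111, 106 and 113 CPM in TET1 KO livers. The groups overlapped only through WT 2, which lay above TET1 KO 3. The log2 FC was 0.20 (SE 0.12, edgeR adjusted p = 0.311; exact permutation p = 0.0571).

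Fads3 (ENSMUSG00000024664, chr19:10040855-10060113) was scarce, with 18 to 38 counts a library. It was at 1.57, 1.53 and 0.993 CPM in WT and at 1.82, 1.62, 1.94 and 1.72 CPM in TET1 KO livers. All 4 TET1 KO values were above the WT values, 11.7% of tested genes having groups apart in this direction, and they overlapped when libraries were scaled by total counts alone. The log2 FC was 0.37 (SE 0.27, edgeR adjusted p = 0.391; exact permutation p = 0.0286).

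Scd2 (ENSMUSG00000025203, chr19:44293676-44306864) was at 4.13, 4.60 and 3.70 CPM in WT and at 2.63, 3.59, 2.35 and 5.85 CPM in TET1 KO livers. TET1 KO 1 to 3 lay under the WT livers and TET1 KO 4 lay above them. The log2 FC was -0.19 (SE 0.30, edgeR adjusted p = 0.703; exact permutation p = 0.429). Scd1 (ENSMUSG00000037071), the abundant hepatic isoform, was at 3367, 7470 and 2442 CPM in WT and at 2281, 668, 635 and 2616 CPM in TET1 KO livers, with a log2 FC of -1.51 (SE 0.54, edgeR adjusted p = 0.121). Without WT 2 the Scd1 value was -0.91 (edgeR adjusted p = 0.474), and without TET1 KO 4 it was -1.89 (edgeR adjusted p = 0.0650). Scd2 and Scd1 are close relatives, so a small share of the many Scd1 reads placed on Scd2 would count there, and the Scd2 level is uncertain to that extent.

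**Figure D3:**
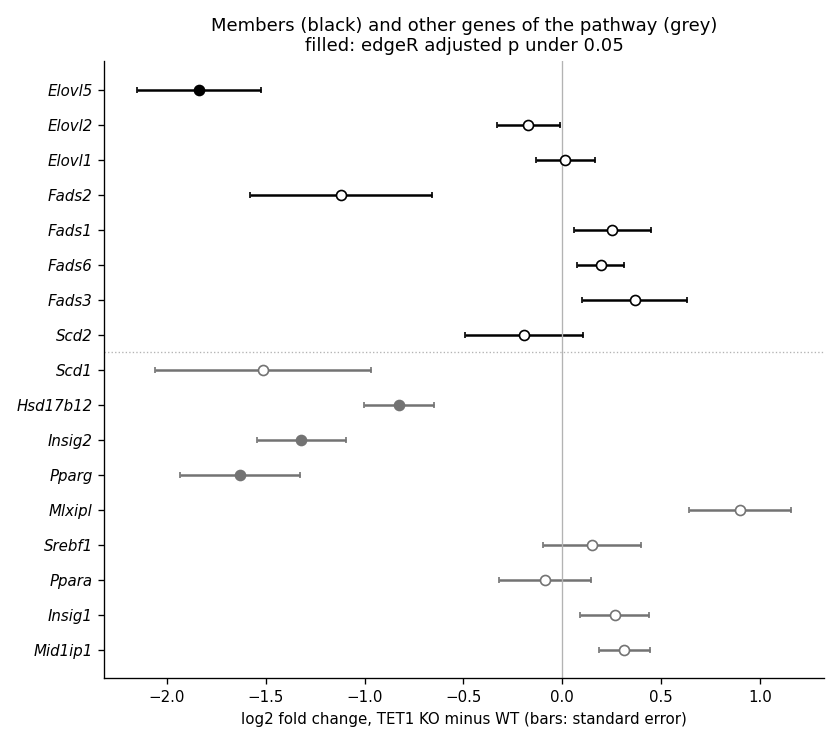
Log2 fold changes (horizontal axis, TET1 KO minus WT) with standard errors for the 8 members (black) and 9 other genes of the pathway (grey), filled where the edgeR adjusted p was under 0.05. Elovl5 at -1.84 was the member past the threshold, together with Hsd17b12 at -0.82, Insig2 at -1.32 and Pparg at -1.63.

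Fads3, Fads2 and Fads1 lie side by side on chromosome 19, Fads3 and Fads2 with 2651 bases and Fads2 and Fads1 with 81373 bases between them. The log2 FCs were 0.37, -1.12 and 0.25 along this order, so Fads2 was the member of the cluster with a value under 0. The 6 neighbours Fth1, Best1, Rab3il1, Fen1, Tmem258 and Myrf gave no call in edgeR's test (0 of 5 tested, also 0 at an unadjusted p under 0.05 and 0 by DESeq2). Over all tested genes 2.02%, 26.3% and 8.74% passed in these ways. The groups were apart for 1 neighbour, Fen1, which was lower, as for 10.8% of all tested genes in this direction. Their log2 FCs were -0.43 for the ferritin heavy chain gene Fth1, 0.13 for Rab3il1, -0.39 for the flap endonuclease gene Fen1, 0.29 for Tmem258 and 0.08 for the transcription factor gene Myrf. Best1, with at most 3 counts in a library, was not tested.

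**Figure D4:**
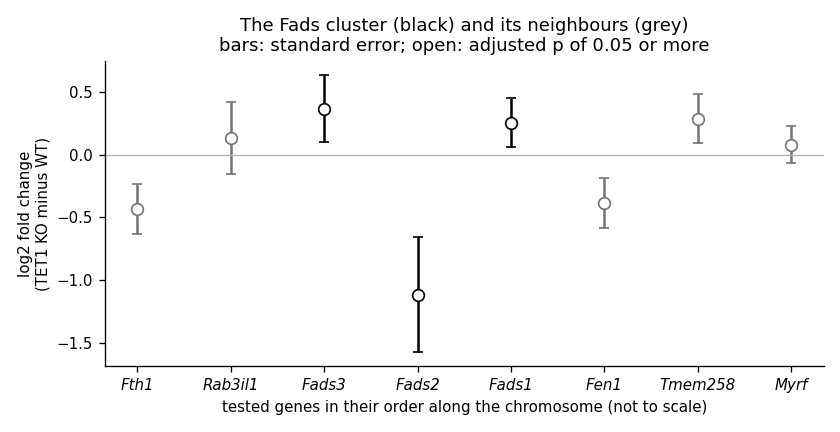
Log2 fold changes (vertical axis, TET1 KO minus WT) with standard errors for the tested genes of the Fads cluster (black) and its neighbours (grey), in their order on chromosome 19 but not to scale. Fads2 at -1.12 lay lowest, between Fads3 at 0.37 and Fads1 at 0.25, and none had an edgeR adjusted p under 0.05.

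Ratios of counts between 2 members within 1 liver do not depend on how libraries are scaled, and they are given as a description with no test. The Fads1 to Fads2 ratio was 2.92, 1.11 and 2.30 in WT and 7.04, 6.64, 5.01 and 3.02 in TET1 KO livers. The Elovl5 to Elovl2 ratio was 1.84, 2.12 and 1.43 in WT and 0.467, 0.585, 0.402 and 0.849 in TET1 KO livers. Neither ratio overlapped between the groups, TET1 KO 4 being the knockout liver nearest to WT in both. The mean log2 ratio was 1.40 higher in TET1 KO livers for Fads1 to Fads2 and fell by 1.68 for Elovl5 to Elovl2.

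The Elovl5 to Fads2 ratio overlapped between groups, at 6.02, 3.17 and 3.36 in WT and 3.11, 3.34, 2.32 and 1.74 in TET1 KO livers. The Scd2 to Scd1 ratio overlapped as well, at 0.00123, 0.000616 and 0.00151 in WT and 0.00115, 0.00538, 0.00371 and 0.00224 in TET1 KO livers. Scd2 was therefore under 1% of Scd1 by counts in each liver.

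**Figure D5:**
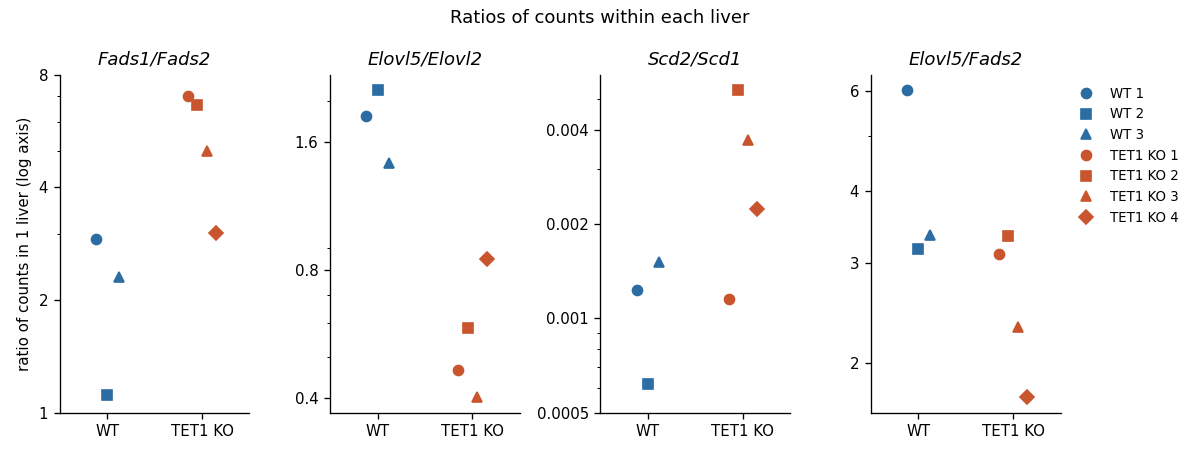
Ratios of counts (log axis) of 2 genes within each of the 3 WT (blue) and 4 TET1 KO (orange) livers, 1 panel a ratio. Fads1 to Fads2 lay between 1.11 and 2.92 in WT and 3.02 and 7.04 in TET1 KO livers, and Elovl5 to Elovl2 lay between 1.43 and 2.12 in WT and 0.402 and 0.849 in TET1 KO livers.

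Levels were compared between members as CPM per kilobase of exon. In WT livers Elovl5 had the highest mean level, at 154 ± 61.4 (SD, n = 3), followed by Fads2 at 94.8 ± 56.7, Elovl2 at 76.4 ± 16.6 and Fads1 at 72.7 ± 6.04. These 4 neighbours in the order overlapped, and then Fads6 (14.8), Elovl1 (9.65), Scd2 (0.760) and Fads3 (0.418) each lay apart from the one before. In TET1 KO livers Fads1 came first at 86.7 ± 22.6 (SD, n = 4), then Elovl2 at 67.9 ± 3.29, Fads2 at 43.6 ± 30.7 and Elovl5 at 43.1 ± 16.8, again overlapping. Elovl5 thus came at place 1 in WT and at place 4 in TET1 KO livers, or 3 with other exon lengths. Scd1 was far above all members, at 915 in WT and 320 in TET1 KO livers. The Fads2 exon model had 1508 bases (GENCODE M1), and the RefSeq gene spans 1399 bases more of the genome, introns included. If all of these were exon, which the tables used here do not give, the Fads2 level would be 49.2 in WT and 22.6 in TET1 KO livers.

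By the shape of their values over the 7 livers, each gene centred on its mean log2 CPM, the genes most like Elovl5 among 9841 compared were Gm4735, Slc16a5 and Anxa2, with root mean square differences of 0.320, 0.324 and 0.339. Fads2 came at place 45 in this order (0.509) and Scd1 at place 284 (0.663). The genes most like Fads2 were Ptges3-ps (0.267), Gm5421 (0.292) and Gm6170 (0.315), and reads of a pseudogene such as Ptges3-ps may belong to its parent gene. Ptges3 had a log2 FC of 0.17 and Ptges3-ps one of -1.135, and where the reads of Ptges3-ps came from was not tested. Fads6 was most like Exosc10 (0.0393), Tprkb (0.0434) and Stard5 (0.0458), all with little change between groups.

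Beside the members, 71 genes in 6 lists cover the rest of the pathway, of which 62 were tested and 3 passed in edgeR's test, all lower in TET1 KO livers, where 2.02% of all tested genes passed. These were Hsd17b12, Insig2 and Pparg. The groups were apart for 18 of the 62, 6 higher and 12 lower, beside 22.5% of all tested genes, 11.7% higher and 10.8% lower. The median log2 FC was -0.08 against 0.01 over all genes. DESeq2 passed 11, 2 higher and 9 lower, where it passed 8.74% of its tested genes. Without WT 2 edgeR passed 0 of them (4 higher and 8 lower at an unadjusted p under 0.05), without WT 1, TET1 KO 2 or TET1 KO 3 it passed 1, and without TET1 KO 4 it passed 8.

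Each round of elongation needs a reductase, a dehydratase and a second reductase after the elongase. Hsd17b12 (ENSMUSG00000027195), the 3-ketoacyl-CoA reductase, was at 134, 193 and 124 CPM in WT and at 69.3, 83.1, 87.6 and 99.7 CPM in TET1 KO livers. No TET1 KO liver reached the WT range. It fell to 56.5% of the WT mean (log2 FC -0.82, SE 0.18, edgeR adjusted p = 0.0436), and in the fits with 1 liver left out its adjusted p was under 0.05 without WT 3 and without TET1 KO 4 and ran from 0.0523 to 0.199 in the other 5. The other 5 tested genes of this list, with the dehydratases Hacd1 to Hacd4 and the enoyl reductase Tecr, did not pass.

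Desaturases draw electrons from cytochrome b5 and its reductases, and of the 5 genes tested 0 passed in edgeR and 0 in DESeq2, with 2, both lower, at an unadjusted p under 0.05, where 12.7% of all tested genes were lower. Of 7 tested paralogs, which are other desaturases and elongases, edgeR also passed 0. At an unadjusted p under 0.05, 1 was higher and 3 were lower, beside 13.6% and 12.7% of all tested genes. DESeq2 passed 2, both lower, where 4.58% of all genes were lower. Of 14 tested genes that activate polyunsaturated acids or place them in lipids, edgeR passed 0, with 1, Acsl5, lower at an unadjusted p under 0.05 and by DESeq2, named after its values were seen.

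The last step to docosahexaenoic acid is a round of peroxisomal β-oxidation. Of the 10 genes of this list edgeR passed 0, while 5 were lower at an unadjusted p under 0.05 (12.7% of all genes) and 3 were lower by DESeq2 (4.58% of all genes). Without TET1 KO 4 edgeR passed 2 of them, both lower, where 464 of all genes were called lower in place of 169. The groups were apart, lower, for 4, where 10.8% of tested genes were apart in this direction. These were named after their values were seen and are the transporter Abcd2 (log2 FC -1.75), the bifunctional enzymes Ehhadh (-1.04) and Hsd17b4 (-0.71) and the thiolase Scp2 (-0.56), with edgeR adjusted p from 0.0690 to 0.126.

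Among 20 regulators, 2 passed in edgeR, both lower, while 5 were higher and 2 lower at an unadjusted p under 0.05, beside 13.6% and 12.7% of all genes, and DESeq2 passed 2 higher and 2 lower, beside 4.16% and 4.58%. Without TET1 KO 4 edgeR passed 2 higher and 2 lower, where it called 427 of all genes higher and 464 lower in place of 129 and 169. Of the 20, 15 had a value above 0, the median log2 FC was 0.14, and the groups were apart for 6 higher and 3 lower, beside 11.7% and 10.8% of all genes. Insig2 (ENSMUSG00000003721), which holds SREBP precursors in the endoplasmic reticulum, was at 198, 225 and 131 CPM in WT and at 52.4, 66.3, 96.2 and 80.8 CPM in TET1 KO livers. The groups did not overlap, with a log2 FC of -1.32 (SE 0.22, edgeR adjusted p = 0.0196). Pparg, the nuclear receptor that drives lipid storage, had a log2 FC of -1.63 (SE 0.31, edgeR adjusted p = 0.0265). Insig2 missed the threshold without WT 2 (adjusted p = 0.110) and TET1 KO 2 (adjusted p = 0.0568), and Pparg without WT 1 (adjusted p = 0.0549), WT 2 (adjusted p = 0.149) and TET1 KO 3 (adjusted p = 0.0786).

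The transcription factor genes classically tied to the members did not pass in edgeR's test. Their RNA levels do not give the activity of the proteins, which was not measured here. Srebf1, whose product SREBP1c acts on Fads and Elovl genes, was at 332 ± 57.0 CPM in WT (SD, n = 3) and 369 ± 127 CPM in TET1 KO livers (SD, n = 4), with a log2 FC of 0.15 (edgeR adjusted p = 0.716) that was -0.09 without TET1 KO 1. Ppara had -0.09 (edgeR adjusted p = 0.830), and 0.21 without WT 2. Mlxipl, which encodes the carbohydrate response factor ChREBP, had 0.90 (SE 0.26, edgeR adjusted p = 0.0793; DESeq2 adjusted p = 0.0103), with all 4 TET1 KO livers above the WT livers, and 1.03 without TET1 KO 4 (edgeR adjusted p = 0.0450). Insig1 had 0.27 (edgeR adjusted p = 0.341) and Mid1ip1, a lipogenic protein gene, 0.31 (edgeR adjusted p = 0.156).

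The sums of 2 marker lists did not overlap between the groups. The 6 bile duct markers summed to 29.8 to 38.0 CPM in WT and 46.3 to 68.5 CPM in TET1 KO livers, and 3 of their 5 tested genes had groups apart, all higher, as had 11.7% of all genes. EdgeR passed 0 of the 5, 4 were higher at an unadjusted p under 0.05 (13.6% of all genes) and DESeq2 passed Epcam and Sox9, both higher (4.16%). Without TET1 KO 4 edgeR passed 1 of them, higher, where 427 of all genes were called higher in place of 129. Their median log2 FC was then 0.543 in place of 1.215. The 6 adipocyte markers summed to between 7.42 CPM (WT 2) and 17.96 CPM in WT and to 27.5 to 60.9 CPM in TET1 KO livers, mostly through Adrb3, which rose from 9.91 to 39.6 CPM on average (log2 FC 2.00, edgeR adjusted p = 0.0218), while Adipoq and Plin1 had at most 60 and 70 counts in a library. The red blood cell markers, at 777 to 870 CPM in WT, were at 1113 CPM in TET1 KO 4 and at 219 to 488 CPM in the other TET1 KO livers, so they were highest in the liver with the highest Fads2, Fads1 and Scd2 of its group. EdgeR and DESeq2 passed 0 of these 5, all with a value under 0. At an unadjusted p under 0.05 1 of them was lower, beside 12.7% of all genes. Without TET1 KO 4 edgeR passed 3, all lower, where 464 of all genes were called lower in place of 169. The groups were then apart for 4, and the share of all genes apart without this liver was not counted. Macrophage, endothelial, stellate and lymphocyte sums overlapped between the groups, and edgeR passed 0 of their tested genes. At an unadjusted p under 0.05 there were 0 macrophage genes, 1 higher and 2 lower endothelial, 3 lower stellate and 1 higher lymphocyte genes of 10, 8, 8 and 5 tested, beside 13.6% higher and 12.7% lower over all genes. DESeq2 passed Lyve1 (log2 FC -1.08), Col1a1 (-0.96) and Col3a1 (-0.99), all lower, as were 4.58% of all genes. The part of these in the members' values was not tested.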

How the data were processed

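RNA was extracted with a column kit and libraries were made with a stranded kit, from polyadenylated or rRNA-depleted RNA as the labels give both. Per the submitters' processing notes, reads were trimmed with Trimmomatic 0.36, aligned to GRCm38 with GSNAP and counted per gene with featureCounts 1.5.3. The annotation release and strand setting are not given in the sources used here, so reads of overlapping genes and of close paralogs may be shared. The deposited values are raw counts per gene, 1 table a liver, which were joined by Ensembl ID. From each file, 5 repeated IDs were dropped, and 26 symbols that a spreadsheet had altered in 1 table were read from the others.

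Genotypes were compared with edgeR 4.0.16 (R 4.3.3; filterByExpr, TMM, quasi-likelihood test, Benjamini-Hochberg adjustment over 14754 genes) on all 7 livers, with genotype as the only term. Log2 CPM used a prior count of 2. DESeq2 1.42.0, other scalings and filters, a replicate block and fits without 1 liver served as alternatives. The fit was also run on simulated counts, with an outcome that is not reported here. Single genes were also compared with an exact permutation test over livers. Exon lengths came from GENCODE M1 (length only), coordinates and promoters from RefSeq (GRCm38.p6). The edgeR p-values set the difference between groups against the spread between livers, estimated in part across genes. The permutation p is the share of the 35 splits with a difference at least as large. No 2 livers of a genotype agreed within sampling noise (lowest chi-square per degree of freedom 24.95).

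The members and lists were chosen with earlier results of these data known. Besides the 8 members, the text names pathway genes with an edgeR adjusted p under 0.05, Scd1, 5 regulators, the neighbours of the Fads cluster, Tet genes, the 3 genes most alike to the 3 members of lowest p, and examples chosen after their values were seen, which are those said to be so and the others of the elongation, mediator and marker lists.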

Additional observations from a re-analysis of the deposited data

Results flagged for a closer look

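In the 4 TET1 KO livers, the Fads2 level of TET1 KO 4 (135 CPM) stood far from the others (36.9 to 45.9 CPM), with a gap of 0.909 of the group's whole range, past Dixon's critical value for 4 samples. Tet3, a TET family member, had its lowest value in the same liver, under the 24.7 to 26.0 CPM of the others, with a gap of 0.833 of the range, and its log2 fold change was 0.32 (edgeR adjusted p = 0.223). In both genes TET1 KO 4 lay on the side of the WT livers. Of 28 values examined in this way, the levels of 24 genes and 4 ratios of counts, 2 passed, where 1.4 are expected by chance.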

How the results depend on the processing

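Elovl5 was lower and Fads2 had a negative value in each alternative run, and the signs of Fads1, Fads3 and Fads6 (positive) and Elovl2 and Scd2 (negative) also held in each of 14. For Elovl1, with 0.02, the sign turned to -0.0075 by DESeq2, -0.075 with library size only and -0.012 with no filter on low counts, and ran from -0.071 to 0.093 without 1 liver. The count of members called was 1, and 0 to 2 without 1 liver, the count of pathway genes called was 3, 11 by DESeq2 and 0 to 8 without 1 liver, and over all genes 298 were called, 1315 by DESeq2, 592 with no filter and 38 (without WT 2) to 891 (without TET1 KO 4) without 1 liver. Scaling by library size only called 107 higher and 312 lower in place of 129 and 169, and left 1 member with groups apart in place of 2, a count that was 2 to 4 without 1 liver. With exon lengths raised by any excess of the RefSeq over the GENCODE M1 gene span, chosen after seeing the data, 3 members changed place in the WT level order.

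WT and TET1 KO livers share the numbers 1 to 3, but the labels tie them to no shared litter or day. The deviations of livers with the same number correlated at 0.209, -0.123 and -0.0964, and those with unlike numbers at -0.3 to 0.311. So few livers cannot decide whether the numbers pair the samples. With a replicate block 2 members (Fads2 at -1.59, edgeR adjusted p = 0.0166, was added), 8 pathway genes and 1326 genes were called. No WT liver has the number of TET1 KO 4, so that liver has a block of its own and adds nothing to the genotype estimate. The block fit is thus close to the fit without TET1 KO 4, where Fads2 was at -1.74. Depth limits Fads3 (18 to 38 counts) and Scd2 (42 to 126 counts), and 3 against 4 livers limit the permutation test to p = 0.0286.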

Other observations

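Polyunsaturated acids made by these enzymes are the source of prostaglandins, leukotrienes and epoxides. Of 17 genes of that branch 13 were tested, and 1 passed in edgeR's test, where 2.02% of all genes passed. At an unadjusted p under 0.05 there were 1 higher and 2 lower, beside 13.6% and 12.7% of all genes, and DESeq2 passed 2, both lower, beside 4.58%. The gene that passed was Ephx1, the microsomal epoxide hydrolase, named after its values were seen. It fell from 442 ± 116 CPM in WT (SD, n = 3) to 171 ± 32.2 CPM in TET1 KO livers (SD, n = 4), a log2 fold change of -1.37 (its SE was 0.21, with edgeR adjusted p = 0.0117), and its groups were apart, as were those of 10.8% of all genes in this direction. Without WT 2 its adjusted p was 0.0719, and in the other 6 fits without 1 liver it was under 0.05. Ephx2, the soluble epoxide hydrolase that acts on epoxides of arachidonic acid, had 0.17 (edgeR adjusted p = 0.519). Lta4h, which makes leukotriene B4, had groups apart at 32.03 ± 1.37 CPM in WT and 23.2 ± 0.714 CPM in TET1 KO livers (log2 fold change -0.47, edgeR adjusted p = 0.0622; DESeq2 adjusted p = 0.0117). The prostaglandin genes Ptgs1 and Ptges3 had -0.03 (edgeR adjusted p = 0.938) and 0.17 (edgeR adjusted p = 0.473), and Ptgs2, Alox5, Alox12 and Alox15, with at most 15 counts in a library, were not tested. The median of the 13 was -0.09.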
